A study of Homo sapiens with 6 samples.

Results

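Glycolysis and hypoxia response genes were read in HEK293T cells with and without a knockout of SMARCA3, the protein that the gene HLTF encodes. The set held 40 genes of the 56832 symbols in the count table, each taken as the row whose name equals the gene symbol. It was made of 20 genes of glucose uptake, glycolysis and lactate handling, 3 genes that set the fate of pyruvate or the level of fructose 2,6-bisphosphate, 7 regulators of the hypoxia-inducible factors (HIF), and 10 further HIF target genes. Poly(A)-selected RNA was sequenced from 3 wild-type and 3 SMARCA3 knockout libraries. HEK293T is an established epithelial-like line from human embryonic kidney that carries the SV40 large T antigen. Both groups were this line, and the labels name no change of oxygen, glucose or any other treatment. They name neither the knockout method nor the number of clones, nor separate cultures for the replicates. Each p-value is therefore a statement about the spread among these 6 libraries, which may be technical only.

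Glycolysis splits glucose into pyruvate in a fixed order of enzymatic steps, most of which are served by several isozymes from different genes. HIF is a pair of an oxygen-sensitive alpha subunit, HIF1A or EPAS1 (HIF-2 alpha), and the stable subunit ARNT. In oxygen, the prolyl hydroxylases EGLN1, EGLN2 and EGLN3 mark the alpha subunit, VHL binds it and it is degraded, so that HIF is set largely at the protein, which these libraries do not measure. In low oxygen HIF binds short DNA motifs near its target genes, among them many glycolytic genes, PDK1, EGLN3, ADM and ANKRD37.

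HLTF mRNA, the target of the knockout, was present in all 6 libraries. It stood at 215, 191 and 195 CPM (counts scaled to 1000000 per library) in wild-type replicates 1 to 3 and at 141, 139.9 and 149 CPM in knockout replicates 1 to 3. All 3 knockout libraries lay below all 3 wild-type libraries (log2 fold change -0.48, SE 0.05, adjusted p = 4.65e-05), and the level of the protein was not measured here. Whether the fall was particular to HLTF was not tested. Around SIAH2, a gene of the same chromosome, 36 of 40 neighbouring genes were called lower, at a median of -0.60. Total counts ran from 33125811 to 41593655, with all 3 knockout libraries below all 3 wild-type ones. A floor of 3 counts in a library corresponds to 0.0723 to 0.0909 CPM, which covers counting error only. Of 10 markers listed for the labelled line, 8 reached 1 CPM in every library, EPCAM ran from 0.204 to 1.11 CPM and KRT19 had no count. Their summed level was 334 to 355 CPM in wild-type and 242 to 245 CPM in knockout libraries, and the part of this difference in the results below was not tested. Most of that sum was VIM, at 116 to 191 CPM over the 6 libraries, and CDH2, at 87.3 to 113 CPM. Markers of other cells were low: the summed fibroblast list ran from 6.41 to 8.67 CPM, most of it COL1A1 with DCN at 0, the endothelial list from 0.299 to 0.788 CPM, and the blood list from 2.36 to 3.46 CPM with CD3E and HBB at 0.

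Of the 40 genes, 39 could be tested and 24 of these differed between the groups, 9 higher and 15 lower in the knockout. A gene is called here when its adjusted p from edgeR's quasi-likelihood F test lies below 0.05. Over all 18061 genes tested, 31.8% were called, 14.0% as higher and 17.7% as lower. Most of the 40 genes are abundant, and abundant genes were called more often. At a mean of 10 CPM or more, 36.9% of 9571 genes were called, and 20 of the 32 members in that range were. Below 10 CPM, 26.0% of 8490 genes were called, and 4 of the 7 members in that range were. The part of abundance in the members' calls was not tested. The CPM ranges of the groups did not overlap in 24 members, against 45.6% of all genes tested. The members' median log2 fold change was -0.07, with 25 below 0, and the median of all genes tested was 0.0031. Of the 24 called members, 4 moved by a log2 fold change of 1 or more, namely ADM, ENO2 and ANKRD37, which fell, and SLC16A3, which rose. Over all called genes, 16.0% moved that far. In bulk RNA, fewer cells that express a gene and less RNA per cell cannot be told apart.

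**Figure D1:**
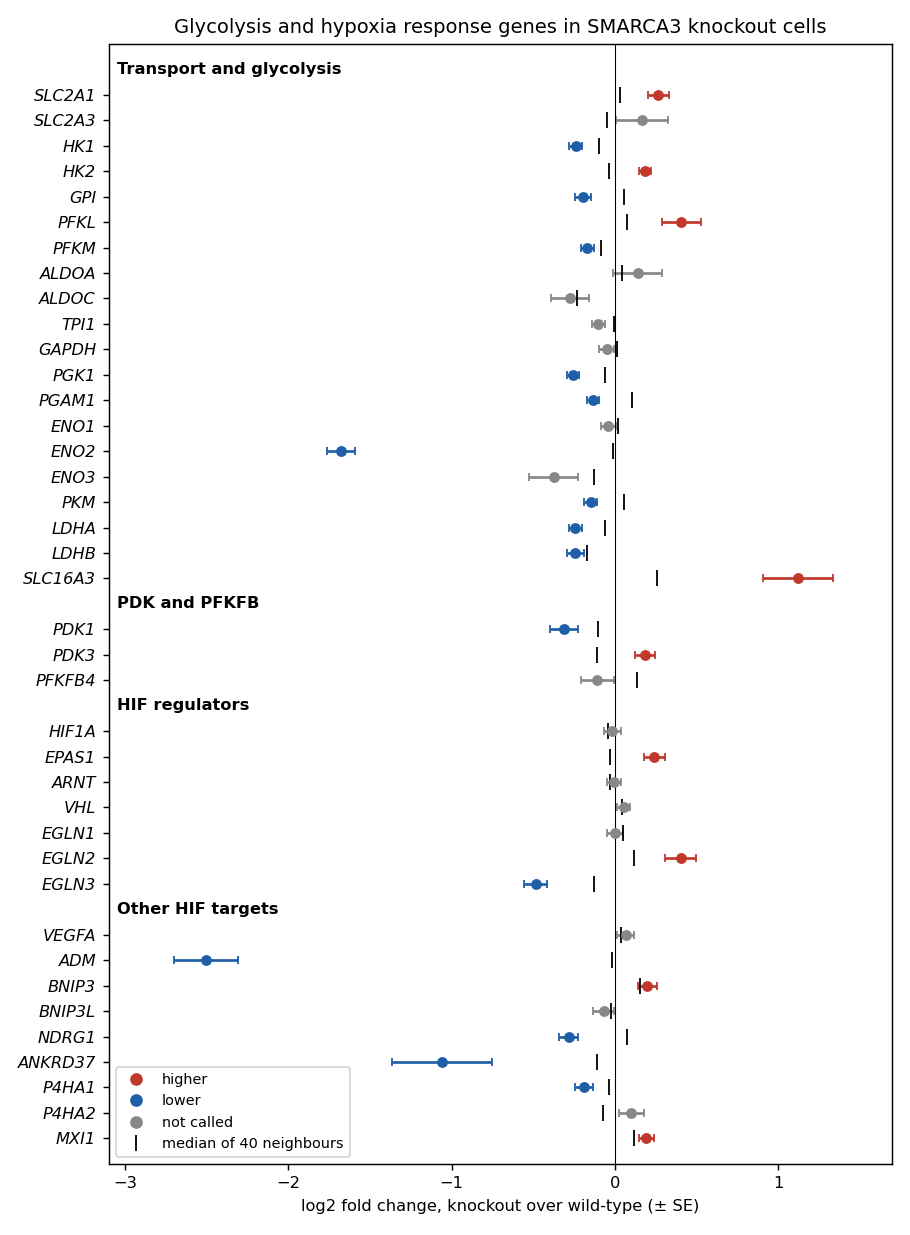
Log2 fold change of knockout over wild-type (x axis) with its SE for the 39 tested genes, grouped by role (y axis), coloured by call, with a vertical tick at the median of each gene's chromosomal neighbours. ADM at -2.50 and ENO2 at -1.68 lie far to the left of the rest, SLC16A3 at 1.12 lies farthest to the right, and most other genes lie within 0.5 of 0.

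RefSeq promoter windows were at hand for 35 of the 40 genes, in 62 windows of the 250 bases before a transcript start (GRCh38.p14). SLC2A3, VHL, VEGFA, BNIP3L and NDRG1 are named only. Each window was searched on both strands for the HIF core motifs ACGTG and GCGTG. The first of these stood in 23 of the 62 windows (37.1%), in 22.0% of 15793 windows of tested genes and in 18.5% of all 35116 windows. GCGTG stood in 32.3% of the members' windows and in 42.8% of the windows of tested genes, and either motif in 56.5% and 54.3%. Counted by gene, ACGTG was present for 6 of the 9 genes that rose, for 8 of the 14 with a window that fell, for 5 of the 11 that were not called and for CA9. A match in any window counted, and genes had from 1 window (ADM) to 7 (HK1 and PFKM). The share by gene over all genes tested was not counted. The shares by window above are therefore no background for these counts. The sequences below show the motif in the genes with the largest changes and in 1 or more called genes of each role. Capitals mark either motif on either strand, and the palindrome CACGTG counts as 2 overlapping matches. Stretches are written 5′ to 3′ on the strand of the gene. The SLC16A3 stretch, 240 bases, is the part outside annotated exons of 1 of its 5 windows, the one with ACGTG, and the others are 30 bases around the motif.
SLC16A3, chr17:82228792-82229031, plus strand: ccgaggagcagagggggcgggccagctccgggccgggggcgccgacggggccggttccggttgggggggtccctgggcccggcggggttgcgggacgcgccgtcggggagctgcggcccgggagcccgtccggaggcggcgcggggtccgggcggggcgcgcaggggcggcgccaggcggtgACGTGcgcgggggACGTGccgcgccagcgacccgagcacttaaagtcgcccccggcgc
HK2, chr2:74835009-74835038, plus strand: ttccggcgagagCACGTGgagagaatcgtg
PGK1, chrX:78104043-78104072, plus strand: cggACGTGacaaacggaagccgCACGTctc
ENO2, chr12:6914449-6914478, plus strand: cacccgcgctcgtACGTGcgcctccgccgg
LDHA, chr11:18394470-18394499, plus strand: gactcaCACGTGggttcccgCACGTccgcc
PDK1, chr2:172556060-172556089, plus strand: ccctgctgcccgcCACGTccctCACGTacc
EGLN2, chr19:40799130-40799159, plus strand: gcggggcgcggtCACGTGcccaccgggcga
BNIP3, chr10:131982040-131982069, minus strand: gcgCACGCgccgCACGTGccaCACGCaccc
ANKRD37, chr4:185396676-185396705, plus strand: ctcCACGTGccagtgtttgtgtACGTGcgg
ADM, chr11:10304959-10304988, plus strand: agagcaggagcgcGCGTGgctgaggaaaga
In the GENCODE annotation of the same build, the ENO2, LDHA, PDK1, ANKRD37 and ADM stretches overlap an untranslated region of at least 1 annotated transcript. Whether that region is the 5′ or the 3′ one, and of which gene, was not looked up. The stretches of HK2, PGK1, SLC16A3 and EGLN2 lie in an intron of a longer transcript, and that of BNIP3 between genes. ADM, the gene that fell most, held no ACGTG in its 1 window and GCGTG 1 time, while ANKRD37 held ACGTG 3 times and EGLN3, which also fell, held neither motif. Such matches describe the letters only, since no binding was measured.

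The entry of glucose and the first steps of glycolysis changed in both directions. SLC2A1, which encodes the widespread glucose transporter GLUT1, measured 40.2, 45.4 and 47.3 CPM in wild-type and 53.9, 51.1 and 55.0 CPM in knockout libraries. Every knockout value was above every wild-type value, and SLC2A1 rose by 20.2% (log2 fold change 0.27, SE 0.065, adjusted p = 0.0101). SLC2A3, the high-affinity transporter GLUT3, was rare at 1.93 ± 0.23 and 2.17 ± 0.35 CPM (mean ± SD, n = 3) and was not called. The 2 hexokinases, which trap glucose as glucose 6-phosphate, moved in opposite directions. HK1, the constitutive form, fell from 124 ± 1.17 to 105 ± 2.11 CPM (log2 fold change -0.24, adjusted p = 8.84e-04). HK2, the inducible form and a HIF target in many cells, rose from 112 ± 2.73 to 128 ± 0.74 CPM (0.19, adjusted p = 0.00442). Both hexokinase calls held under every alternative run, with HK1 at -0.14 (adjusted p = 0.0188) once the median change of its chromosomal neighbours was removed. GPI, which turns glucose 6-phosphate into fructose 6-phosphate, fell from 423 ± 27.2 to 369.5 ± 2.06 CPM (-0.20, adjusted p = 0.00912), a call that was lost without wild-type replicate 2 (adjusted p = 0.0513).

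The phosphofructokinases, which catalyse the committed step, also diverged. PFKL, the liver-type subunit, measured 69.9, 87.2 and 103 CPM in wild-type and 127, 101 and 116 CPM in knockout libraries. Wild-type replicate 3 lay above knockout replicate 2, so the groups overlapped. PFKL rose by 32.6% (log2 0.41, SE 0.12, adjusted p = 0.0239). That call was lost without knockout replicate 1 (adjusted p = 0.0574), without knockout replicate 3 (0.0698), with DESeq2 (0.0833) and with robust dispersion (0.13). PFKM, the muscle-type subunit, fell from 111 ± 1.37 to 99.1 ± 2.26 CPM (-0.17, adjusted p = 0.00851) with no overlap, and lost its call without knockout replicate 1 (adjusted p = 0.0825).

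Below the split into 3-carbon sugars, every enzyme that was called fell. The aldolases were not called. ALDOC, the brain-type aldolase, stood at 6.43 ± 0.55 and 5.31 ± 0.69 CPM (-0.27, adjusted p = 0.0923). ALDOA read only 11.8 to 19.7 CPM in the 6 libraries, a level that is uncertain, since 1657 bases of its exons are shared on the same strand with another annotated gene. TPI1, which interconverts the 2 triose phosphates, measured 1024, 1086 and 1099.6 CPM in wild-type and 974, 999 and 1016 CPM in knockout libraries. The groups did not overlap, but TPI1 was not called (-0.10, adjusted p = 0.0735). GAPDH, which makes the first NADH of the pathway and is often used as a reference gene, stood at 1713 ± 89.9 and 1654 ± 8.1 CPM and was not called (-0.05, adjusted p = 0.408).

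PGK1, the first ATP-yielding enzyme of the pathway, fell more than any other member of the pathway with at least 100 CPM in wild-type. It measured 741, 720.1 and 724 CPM in wild-type and 599, 614 and 616 CPM in knockout libraries. All 3 knockout libraries were low, and PGK1 fell by 16.3% (log2 fold change -0.26, SE 0.035, adjusted p = 2.68e-04). PGAM1, which moves the phosphate on 3-phosphoglycerate, fell from 154 ± 1.60 to 141 ± 2.18 CPM (-0.13, adjusted p = 0.0185). Its call was lost without wild-type replicate 2 (adjusted p = 0.102), without knockout replicate 1 (0.0767), 2 (0.0878) or 3 (0.0770), with DESeq2 and with the replicate number as a block.

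The 3 enolases, which form phosphoenolpyruvate, ranged from abundant and level to rare and reduced. ENO1, the ubiquitous form, stood at 2798 ± 173 and 2723 ± 11.6 CPM and was not called (-0.04, adjusted p = 0.566). ENO2, the neuronal form, measured 21.3, 23.5 and 22.7 CPM in wild-type and 7.46, 6.25 and 7.39 CPM in knockout libraries. The lowest wild-type library was far above the highest knockout library, and ENO2 fell by 68.8% (log2 fold change -1.68, SE 0.085, adjusted p = 1.90e-07). ENO3, the muscle form, read 3.63 ± 0.29 and 2.81 ± 0.58 CPM and was not called (-0.37, adjusted p = 0.0828). PKM, the pyruvate kinase of most tissues, fell from 1618 ± 71.6 to 1459.8 ± 12.2 CPM (-0.15, adjusted p = 0.0175), and lost that call without wild-type replicate 2 (adjusted p = 0.0747) or 3 (0.0893) and without knockout replicate 1 (0.0812) or 2 (0.0597).

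Both lactate dehydrogenase genes fell by the same proportion. LDHA, the HIF target that favours lactate formation, fell from 1362 ± 53.9 to 1152 ± 30.5 CPM (log2 fold change -0.24, SE 0.041, adjusted p = 0.00122). LDHB, the heart-type subunit, measured 1727, 1552 and 1652 CPM in wild-type and 1364, 1329 and 1473 CPM in knockout libraries. Its groups did not overlap (-0.24, SE 0.051, adjusted p = 0.00436). The exons of LDHB share 997 bases on the same strand with another annotated gene, so its level is uncertain. SLC16A3, which encodes the lactate exporter MCT4 and is a HIF target, measured 0.747, 1.26 and 0.997 CPM in wild-type and 2.65, 1.82 and 2.06 CPM in knockout libraries. These values rest on 31, 49 and 38 counts against 91, 67 and 68. Each knockout library was above each wild-type library, and SLC16A3 rose 2.18-fold (log2 fold change 1.12, SE 0.21, adjusted p = 0.00230) from a low level, a call that held under every alternative run. Its exons overlap 482 bases of CSNK1D on the other strand, a gene at 152 CPM in wild-type and 176 CPM in knockout (0.21), and the strand setting of the counting is not given in the sources used here. The part of CSNK1D reads in the SLC16A3 values was not tested.

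Counted together, the 20 genes of uptake, glycolysis and lactate held 4 called higher and 9 called lower, with a median log2 fold change of -0.14. For the 17 enzymes without the transporters the counts were 2 higher, 9 lower and 6 not called, with 14 below 0 and a median of -0.17. Among the 12 of these 20 genes with at least 100 CPM in wild-type, 8 were called lower, 1 higher (HK2) and 3 were not called. That bound uses wild-type alone, which favours genes that are lower in the knockout. With 100 CPM asked of the mean of all 6 libraries, 16 members of the whole set passed, 2 called higher and 8 lower. PFKL, called higher, passed only on that second bound. Over all 2354 genes tested on the second bound, 41.4% were called and 22.6% were called lower. On a scale of CPM per kilobase of exon, which allows levels of different genes to be compared, GAPDH (575), LDHB (551), ENO1 (530.4) and TPI1 (396) led in wild-type, and SLC16A3 (0.111), SLC2A3 (0.313) and ENO3 (0.847) were lowest. GAPDH, LDHB and ENO1 lay within the spread of their libraries of each other. Short exon models and reads placed in processed pseudogenes, of which 62 carry a GAPDH name, 13 a PGAM1 name and 6 an LDHA name, limit such levels. Exons shared on the same strand with another annotated gene, such as 997 bases of LDHB and 542 of GPI, limit them too.

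**Figure D2:**
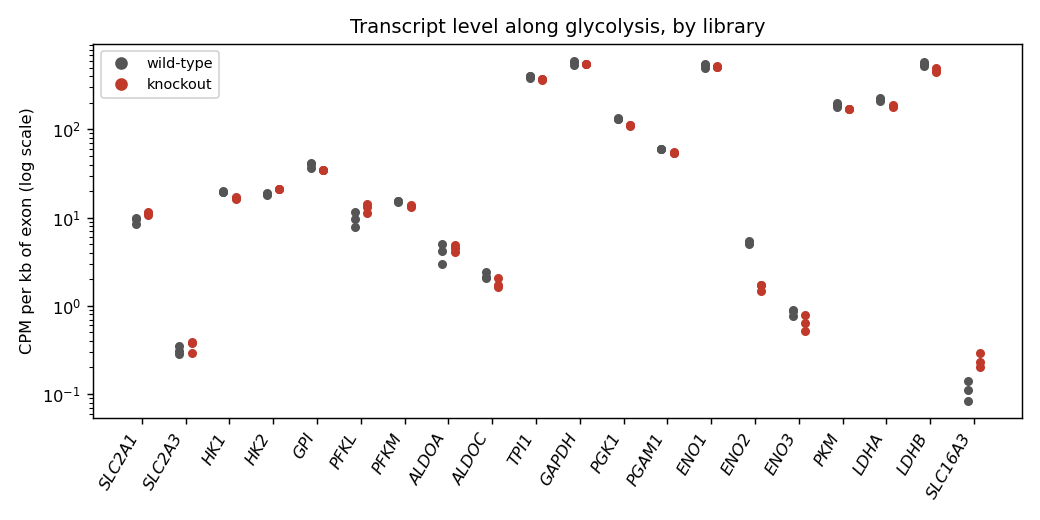
CPM per kilobase of exon on a log axis (y) for the 20 genes of uptake, glycolysis and lactate in pathway order (x), with 1 point per library and wild-type and knockout side by side. The lower part of the pathway lies above 100 in most genes, ENO2 separates by group, and SLC16A3 is the lowest gene in both groups.

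The kinases that hold pyruvate out of the mitochondrial citric acid cycle moved in opposite directions. PDK1, a pyruvate dehydrogenase kinase and HIF target, measured 55.5, 49.7 and 43.5 CPM in wild-type and 37.6, 41.9 and 40.5 CPM in knockout libraries. Wild-type libraries spread widely, yet none fell into the knockout range, and PDK1 fell by 19.4% (log2 fold change -0.31, SE 0.083, adjusted p = 0.0150). Without knockout replicate 1 it was not called (adjusted p = 0.0688). PDK3, an isozyme of the same kinase encoded on the X chromosome, measured 18.6, 18.0 and 18.7 CPM in wild-type and 21.6, 20.3 and 20.9 CPM in knockout libraries. PDK3 rose by 13.8% with no overlap (0.19, SE 0.061, adjusted p = 0.0378), and the call was lost under 9 of 16 alternatives, among them leaving out wild-type replicate 2 (adjusted p = 0.111) or 3 (0.0571) and leaving out knockout replicate 1 (0.125), 2 (0.0668) or 3 (0.102). PFKFB4, a bifunctional enzyme that makes and removes the phosphofructokinase activator fructose 2,6-bisphosphate, was not called at 10.8 ± 1.31 and 10.0 ± 0.79 CPM (-0.11, adjusted p = 0.460).

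HIF1A, ARNT and VHL were not called, and the called regulators were EPAS1 and 2 prolyl hydroxylases. HIF1A measured 111, 101 and 99.7 CPM in wild-type and 101, 105 and 103 CPM in knockout libraries (log2 fold change -0.01, SE 0.05, adjusted p = 0.855). Its partner ARNT measured 91.5, 86.7 and 87.7 CPM against 87.2, 90.5 and 87.1 CPM (-0.01, SE 0.04, adjusted p = 0.932). VHL, the substrate receptor of the ubiquitin ligase that removes HIF alpha subunits, measured 171, 163 and 163 CPM against 169.6, 175 and 170.1 CPM (0.05, SE 0.04, adjusted p = 0.331). The ranges of the groups overlapped in all 3 genes. EPAS1, the other alpha subunit, measured 21.6, 24.1 and 24.2 CPM in wild-type and 27.1, 28.4 and 27.2 CPM in knockout libraries. All knockout values were higher, and EPAS1 rose by 18.3% (0.24, SE 0.064, adjusted p = 0.0146), a call lost without knockout replicate 2 (adjusted p = 0.0660).

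Of the 3 prolyl hydroxylases, the most abundant did not move and the other 2 moved apart. EGLN1 (PHD2), the main oxygen sensor for HIF1A in most cells, measured 119, 105 and 108 CPM in wild-type and 111, 111 and 109.7 CPM in knockout libraries, with overlapping ranges (adjusted p = 0.999). EGLN2 (PHD1) measured 7.23, 7.49 and 6.74 CPM in wild-type and 10.2, 9.86 and 8.30 CPM in knockout libraries. Every knockout library was above every wild-type library, and EGLN2 rose by 32.2% (log2 fold change 0.40, SE 0.097, adjusted p = 0.00886). Its exons share 2012 bases on the same strand with the readthrough gene RAB4B-EGLN2, listed at 0 counts, so the level of EGLN2 is uncertain. EGLN3 (PHD3), itself a HIF target, measured 12.0, 13.0 and 12.7 CPM in wild-type and 8.88, 9.10 and 8.94 CPM in knockout libraries. The groups were well apart, and EGLN3 fell by 28.6% (-0.49, SE 0.072, adjusted p = 4.97e-04). The calls of EGLN2 and EGLN3 held under every alternative run. With the median change of its chromosomal neighbours removed, EGLN2 lay just under the threshold (0.29, adjusted p = 0.0497). EGLN3 then stood at -0.36 (adjusted p = 0.00425).

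**Figure D3:**
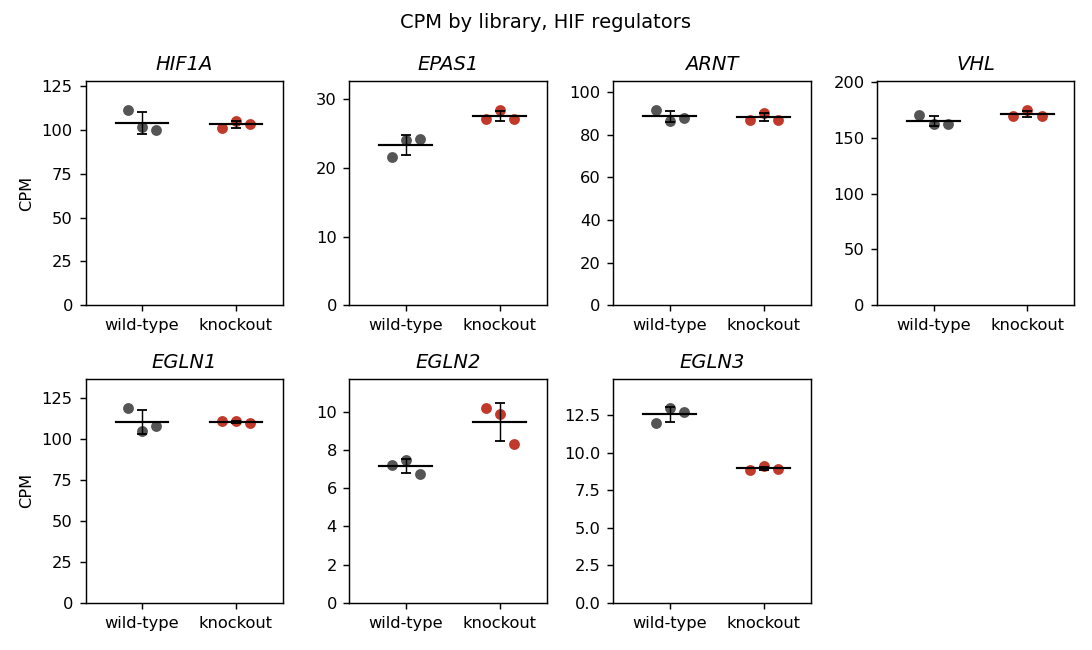
CPM (y axis, from 0) of the 7 HIF regulators in each of 3 wild-type and 3 knockout libraries (x axis), with the mean as a line and the SD as a bar. HIF1A, ARNT, VHL and EGLN1 overlap between groups, EPAS1 and EGLN2 are higher in all 3 knockout libraries, and EGLN3 is lower in all 3.

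The further HIF targets gave 2 genes called higher, 4 called lower and 3 not called, with CA9 untested. Over all genes tested, 14.0% were called higher and 17.7% lower. ADM, which encodes the vasodilator peptide adrenomedullin, measured 3.57, 4.21 and 3.86 CPM in wild-type and 0.874, 0.733 and 0.424 CPM in knockout libraries. These are 148, 164 and 147 counts against 30, 27 and 14. The lowest wild-type value was well above the highest knockout value, and 17.6% of the wild-type level was left (log2 fold change -2.50, SE 0.19, adjusted p = 4.46e-06), the largest change among the members. ADM kept its call under every alternative run. ANKRD37, an ankyrin repeat gene induced in hypoxia, measured 1.04, 0.590 and 1.02 CPM in wild-type and 0.582, 0.380 and 0.303 CPM in knockout libraries, from 10 to 43 counts a library. The groups almost touched, since wild-type replicate 2 read 23 counts and knockout replicate 1 read 20. ANKRD37 fell (-1.06, SE 0.31, adjusted p = 0.0223), and the call was lost without wild-type replicate 3 (adjusted p = 0.0554), without knockout replicate 2 (0.0777) or 3 (0.0857) and with DESeq2 (0.0630). Its exons overlap 909 bases of UFSP2 on the other strand, which went from 15.0 to 12.1 CPM (-0.31), and the part of those reads was not tested.

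NDRG1, a stress-responsive gene used as a hypoxia marker, measured 66.8, 70.9 and 73.0 CPM in wild-type and 57.4, 60.9 and 54.7 CPM in knockout libraries. The groups did not overlap, and NDRG1 fell by 17.8% (log2 fold change -0.28, SE 0.056, adjusted p = 0.00293) under every alternative run. BNIP3, which marks mitochondria for autophagy, measured 62.6, 57.3 and 55.7 CPM in wild-type and 65.3, 65.6 and 70.6 CPM in knockout libraries. BNIP3 rose (0.20, SE 0.057, adjusted p = 0.0225), and lost the call without wild-type replicate 2 (adjusted p = 0.0742) or 3 (0.0652) and without knockout replicate 3 (0.106). Its relative BNIP3L, with the same role, was not called (-0.07, adjusted p = 0.442). The level of BNIP3 is limited by 39 pseudogenes that carry its name.

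MXI1, a repressor that competes with MYC for its partner MAX, measured 58.2, 58.1 and 55.2 CPM in wild-type and 64.9, 64.9 and 66.0 CPM in knockout libraries. All knockout values were above all wild-type values, and MXI1 rose by 14.2% (log2 fold change 0.19, SE 0.046, adjusted p = 0.00904). P4HA1, an alpha subunit of the collagen prolyl hydroxylase, measured 46.9, 44.2 and 43.1 CPM in wild-type and 37.9, 39.7 and 40.1 CPM in knockout libraries. P4HA1 fell (-0.19, SE 0.054, adjusted p = 0.0214) and lost the call without wild-type replicate 2 (adjusted p = 0.0685) and without knockout replicate 1 (0.132), 2 (0.0616) or 3 (0.0530). Its isozyme P4HA2 was not called (0.10, adjusted p = 0.362). VEGFA, the angiogenic growth factor, ran from 56.8 to 63.2 CPM in wild-type and from 62.3 to 64.7 CPM in knockout libraries and was not called (0.07, adjusted p = 0.363). CA9, a carbonic anhydrase and a widely used hypoxia marker, had 1 count in all 6 libraries together, at or under the floor in each, and gives no comparison.

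**Figure D4:**
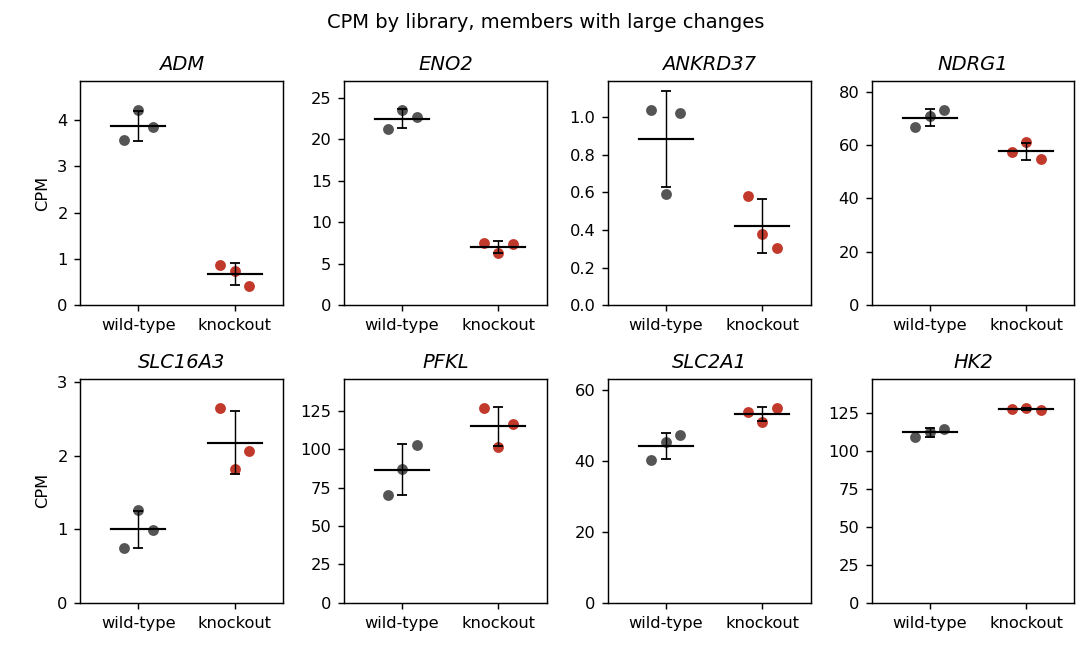
CPM (y axis, from 0) in each of 3 wild-type and 3 knockout libraries (x axis) for 8 called genes, with the mean as a line and the SD as a bar. ADM and ENO2 drop in all 3 knockout libraries, SLC16A3 is higher in all 3, ANKRD37 almost touches between groups, and PFKL overlaps.

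Within isozyme families, the shares of HK2, PFKL, PDK3 and EGLN2 were larger in the knockout and that of ENO2 was smaller. Shares were computed per library as CPM per kilobase of exon over the family, and are a description, since 3 libraries against 3 cannot give an exact two-sided p below 0.1. HK2 made up 48.4% ± 0.60 of hexokinase transcripts in wild-type and 55.8% ± 0.49 in knockout libraries (SD, n = 3), so that the order of HK1 and HK2 was turned. PFKL went from 28.2% ± 3.34 to 38.0% ± 2.25 of phosphofructokinase transcripts, PFKM from 44.6% ± 3.82 to 40.2% ± 2.99, and PFKP, the platelet-type gene outside the set, from 27.2% ± 0.49 to 21.8% ± 0.74. PFKL and PFKP did not overlap between groups in these shares and PFKM did. PDK3 went from 52.9% ± 3.18 to 61.2% ± 2.05 of PDK1 and PDK3 together. PDK2, outside the set and at 19.8 CPM in wild-type and 26.8 CPM in knockout, was not counted in that share. EGLN2 went from 6.06% ± 0.45 to 8.04% ± 0.76 and EGLN3 from 9.53% ± 0.86 to 6.83% ± 0.11 of the prolyl hydroxylases, so that EGLN2 stood below EGLN3 in all wild-type libraries and above it in all knockout libraries. P4HA2 went from 12.0% ± 0.44 to 14.3% ± 0.29. ENO2 went from 0.980% ± 0.036 to 0.317% ± 0.030 of the enolases, nearly all of the rest being ENO1. LDHA stayed at 28.5% ± 0.85 and 28.5% ± 1.23 of the lactate dehydrogenases, and SLC2A1 at 96.8% ± 0.45 and 97.0% ± 0.49 of the 2 glucose transporters. The uncertain level of LDHB limits the lactate dehydrogenase shares. With the longest transcript as the length in place of all exons, HK2 went from 38.5% to 45.7% and stayed below HK1, and EGLN3, at 20.3% and 14.9%, stayed above EGLN2, at 8.44% and 11.5%. The direction of each change was as before, and the order within both families depended on the length used.

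**Figure D5:**
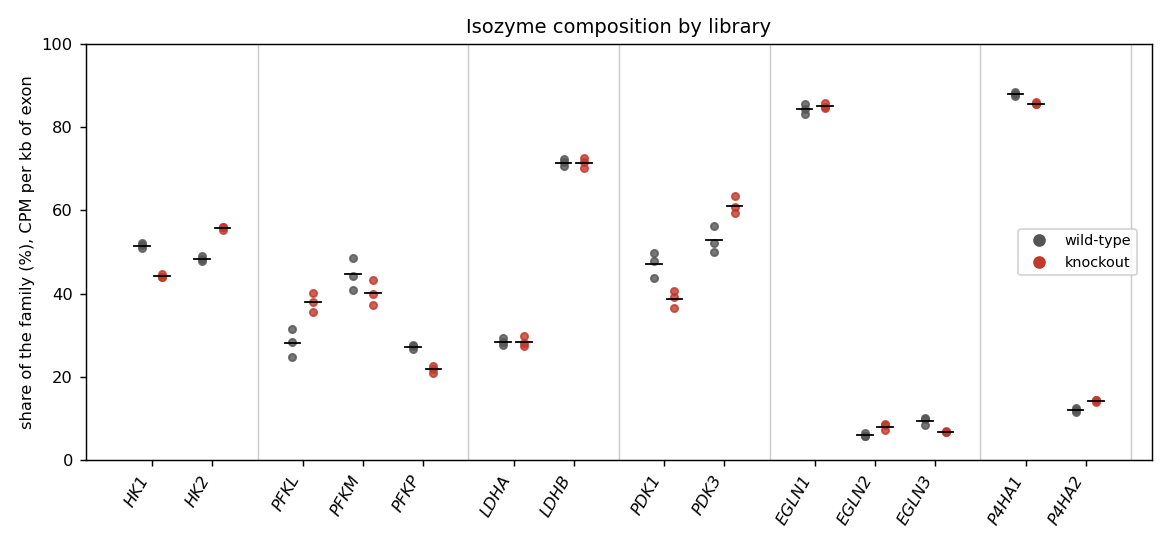
Share of each isozyme in its family (y axis, percent of CPM per kilobase of exon) in each library, for wild-type and knockout side by side, with the mean as a line. HK1 and HK2 change order, PFKL takes a larger share and PFKP a smaller one in knockout libraries, and LDHA and LDHB stay level.

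Some members lie among chromosomal neighbours that moved the same way. For each member, the median log2 fold change of its nearest expressed genes, up to 20 on each side, was taken out of the fit. Of the 24 called members, 7 then lost the call. LDHB, on chromosome 12, went from -0.24 to -0.08 (adjusted p = 0.313), with 19 of its 40 neighbours called lower. MXI1 went from 0.19 to 0.07 (adjusted p = 0.274), with 17 of 40 neighbours called higher, and BNIP3, on the same chromosome, from 0.20 to 0.05 (0.601). PFKM went from -0.17 to -0.09 (adjusted p = 0.141), PDK1 from -0.31 to -0.21 (0.0876), PFKL from 0.41 to 0.33 (0.0618) and P4HA1 from -0.19 to -0.15 (0.0598). SLC16A3 lies near the end of chromosome 17, where 19 of 33 neighbours were called higher at a median of 0.26, and kept a log2 fold change of 0.86 (adjusted p = 0.0122). ADM and ENO2 had neighbours at a median of -0.02 and -0.01, and stood at -2.48 and -1.67 once these were removed. PDK3 rose where its neighbours stood at -0.11, and went from 0.19 to 0.30 with that median removed. PGAM1 and PKM fell where their neighbours stood at 0.10 and 0.05, and with that median removed their changes were larger, at -0.23 and -0.20.

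Other genes of the same pathways and of the HIF response were counted from lists. For comparison with each list, 14.0% of all genes tested were called higher and 17.7% lower. Of 43 other genes of glycolysis and glucose transport, 30 were tested, with 4 called higher, 10 lower and 16 not called, at a median log2 fold change of -0.07. Among those with at least 1 CPM, PDK2, a further pyruvate dehydrogenase kinase, rose most, from 19.8 to 26.8 CPM (0.44), and SLC2A10, a glucose transporter, fell most, from 1.47 to 0.248 CPM (-2.54). PDK2 lies where 20 of 40 neighbours were called higher at a median of 0.13, and the neighbours of SLC2A10 stood at 0.06. Of 24 genes of gluconeogenesis and glycogen, 18 were tested, with 1 called higher and 9 lower, at a median of -0.17. PYGL, the liver-type glycogen phosphorylase that releases glucose units from glycogen, fell from 217 ± 4.33 to 137 ± 0.96 CPM (-0.66, adjusted p = 3.76e-07), and G6PC3, the ubiquitous glucose 6-phosphatase, rose by 0.23 where its neighbours stood at a median of 0.32. Of the 9 genes of the pentose phosphate pathway, 2 were called higher and 3 lower.

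Of 20 other regulators of HIF, 19 were tested, with 6 called higher, 4 lower and 9 not called, at a median of 0.08. CITED2, which competes with HIF for its coactivator, rose from 27.9 to 39.6 CPM (0.51), and SIAH2, a ubiquitin ligase that targets prolyl hydroxylases, fell from 21.6 to 12.8 CPM (-0.76). CITED2 lies where 19 of 40 neighbours were called higher at a median of 0.17. SIAH2 lies where 36 of 40 neighbours were called lower at a median of -0.60. Of 51 other HIF targets, 46 were tested, with 10 called higher, 14 lower and 22 not called, at a median of -0.03. ISM1, which encodes a secreted protein and is listed under its older name C20orf82, rose from 1.98 to 3.60 CPM (0.86), with neighbours at a median of -0.07. KDELR3, a receptor that returns proteins to the endoplasmic reticulum, fell from 13.4 to 3.83 CPM (-1.81), against neighbours at a median of 0.38. The members that are further HIF targets stood at a median of -0.07.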

How the data were processed

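Poly(A)-selected RNA of 3 wild-type and 3 SMARCA3 knockout HEK293T libraries went through a stranded mRNA library kit and paired-end sequencing, per the labels. The authors deposited whole-number read counts per gene symbol, 1 column per library, not normalized. Trim Galore, STAR 2.4, Picard, HTSeq 0.9.1, DESeq2 and the hg38 build are named in the submitters' processing notes. Which annotation release and strand setting the counting used is not given in the sources used here.

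The test used edgeR 4.0.16 (R 4.3.3) over all 6 libraries: filterByExpr (18061 genes kept), TMM scaling (factors 0.997 to 1.005), the quasi-likelihood F test (knockout over wild-type), no covariate, two-sided, Benjamini-Hochberg over all genes tested, threshold 0.05. CPM are counts per 1000000 TMM-scaled counts of tested genes, given by library or as mean ± SD of 3. Between replicates, chi-square per degree of freedom was 3.60 to 15.3, above sampling noise. The fit was tested on simulated data.

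Positions, exon lengths and overlaps came from GENCODE (hg38), looked up by current or older symbol. Promoter windows came from RefSeq. The 40 members and the pathway lists were chosen with earlier results of these data known, so they are no independent evidence of a direction. All members are named by role. Values in every library are given for the 7 HIF regulators and, in each other role, for up to 6 called members with the largest absolute log2 fold change. Others are given by mean, range or log2 fold change, and called members that lose the call with the neighbour median removed have both values. Of each other list at most the called gene that rose most and the one that fell most are named, where its higher group reached 1 CPM.

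Alternatives were RLE factors, library size only, no filter, at least 1 CPM in 3 libraries, DESeq2 1.42.0, limma 3.58.1 voom, robust dispersion, each library left out, a block for the replicate number, the neighbour median removed as an offset and a threshold of 0.01. For isozyme shares, library-size scaling and the longest transcript were also used.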

Additional observations from a re-analysis of the deposited data

How the results depend on the processing

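Of the 24 called members, 10 kept their call in each alternative run, 7 lost it with the neighbour median removed, 11 without some 1 library, 4 with DESeq2 and 10 at a threshold of 0.01. ANKRD37 was not tested under the filter of at least 1 CPM in 3 libraries. At an adjusted p threshold of 0.01, 4 members were called higher and 10 lower, and 3477 genes over the whole table in place of 5737. Leaving out 1 library at a time gave 6 to 9 members called higher and 11 to 17 called lower. With the replicate block, 7 members were called higher and 13 lower and 4232 genes in all, and PGAM1, PDK3, BNIP3 and P4HA1 lost the call. Deviations of libraries with the same number correlated at -0.66, -0.18 and -0.18, and those of unlike number at -0.57 to 0.62. These values gave no sign of a pairing by number. They cannot exclude one, since deviations from a mean of 3 libraries depend on each other. Of the members not called, ALDOC, TPI1 and ENO3 were called in some alternative. Signs turned only in members that were not called, of which ALDOA, at 0.14 in the main fit, lay farthest from 0. ARNT stood at 0.0043 with RLE factors, 0.0038 with the 1 CPM filter, 0.00086 with DESeq2 and 0.025 with the neighbour median removed, and EGLN1 at 0.010, 0.0097 and 0.0067 under the first 3 of these, 0.0014 with voom and 0.0020 with the replicate block. HIF1A stood at 0.030 with the neighbour median removed. With 1 library left out, log2 fold changes ran from -0.027 to 0.33 in ALDOA, -0.077 to 0.0051 in ENO1, -0.039 to 0.046 in HIF1A, -0.024 to 0.029 in ARNT, -0.029 to 0.067 in EGLN1 and -0.11 to 0.0025 in BNIP3L. The cause was not tested. Summed over the 6 libraries, CA9, ANKRD37, SLC16A3, SLC2A3 and ADM had the fewest counts of the members, which limits their precision.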
